A study of Mus musculus with 10 samples.

Results

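The 10 immediate early genes, Fos, Fosb, Jun, Junb, Jund, Egr1, Ier2, Atf3, Dusp1 and Zfp36, were followed by name through 10 RNA-seq libraries of mouse hematopoietic stem cells (HSCs). Of the 20270 genes in the deposited table, 9 were members of this list of 10. Jund was not analysed here. All 9 measured genes passed the filter on low values (a log2 CPM above 0 in at least 2 libraries), as did 15143 genes in all. Atf3 passed it through WT-labelled stressed library A and WT-labelled normal library A alone.

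The HSCs had been sorted by FACS from marrow of primary recipients (strain C57BL/6), mice that had been given lineage-depleted marrow of Id1-/- (KO) or Id1+/+ (WT) donors. There were 2 KO-labelled stressed, 2 WT-labelled stressed, 3 KO-labelled normal and 3 WT-labelled normal libraries, so that every group, normal ones included, came from transplanted marrow. The labels give 4 weeks after transplantation and the series design gives 6 weeks, and neither says what normal and stressed mean. Whether replicate libraries came from separate mice or pools is not stated either, and the p-values cover no more than the spread among the libraries at hand.

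Immediate early genes are switched on within minutes of a growth factor, cytokine or stress signal, without new protein synthesis, mostly through MAP kinases that act on factors already bound at their promoters. FOS and JUN family proteins pair to form AP-1, EGR1 is a zinc finger transcription factor, and DUSP1 and ZFP36 (tristetraprolin) turn the response off, the first by dephosphorylating MAP kinases and the other by speeding the decay of AU-rich mRNAs. In HSCs several of these genes are known to be expressed at rest, and EGR1 is known for restraining HSC division and egress from the marrow in mice. Because tissue dissociation and cell sorting can also induce them, their levels in sorted cells can reflect handling as well as the marrow, and the labels do not record handling.

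Members of the AP-1 family are shown first by their promoters, because the 4 measured subunit genes moved differently. Each window runs from 250 bases before to 50 bases after the annotated start (RefSeq, GRCm38.p6) and is printed 5′ to 3′ on the strand of its gene. Capitals mark matches, on either strand, to a CRE half-site (TGACG), to a CRE-like site (TGACNTCA), to an EGR site (GCGNGGGCG) or to a TATA box (TATAAA). The Fos window is chr12:85473640-85473939 (plus strand), the Fosb window chr7:19309996-19310295 (minus), the Jun window chr4:95052173-95052472 (minus) and the Junb window chr8:84978699-84978998 (minus).
Fos: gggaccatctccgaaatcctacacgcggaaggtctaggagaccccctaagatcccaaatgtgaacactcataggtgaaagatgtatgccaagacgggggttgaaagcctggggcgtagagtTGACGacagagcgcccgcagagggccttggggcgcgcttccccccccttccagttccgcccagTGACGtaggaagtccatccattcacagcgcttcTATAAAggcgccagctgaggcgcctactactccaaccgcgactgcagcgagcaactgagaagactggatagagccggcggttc
Fosb: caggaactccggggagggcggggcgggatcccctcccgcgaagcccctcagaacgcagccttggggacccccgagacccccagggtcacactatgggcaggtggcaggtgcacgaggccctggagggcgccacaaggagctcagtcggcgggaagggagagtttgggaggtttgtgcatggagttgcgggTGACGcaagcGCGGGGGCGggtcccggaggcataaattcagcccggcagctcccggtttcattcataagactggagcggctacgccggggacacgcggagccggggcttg
Jun: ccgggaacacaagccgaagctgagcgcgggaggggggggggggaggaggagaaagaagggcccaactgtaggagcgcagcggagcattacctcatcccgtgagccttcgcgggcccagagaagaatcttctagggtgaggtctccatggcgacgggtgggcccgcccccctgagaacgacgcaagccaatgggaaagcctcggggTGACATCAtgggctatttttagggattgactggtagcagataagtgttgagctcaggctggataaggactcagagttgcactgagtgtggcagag
Junb: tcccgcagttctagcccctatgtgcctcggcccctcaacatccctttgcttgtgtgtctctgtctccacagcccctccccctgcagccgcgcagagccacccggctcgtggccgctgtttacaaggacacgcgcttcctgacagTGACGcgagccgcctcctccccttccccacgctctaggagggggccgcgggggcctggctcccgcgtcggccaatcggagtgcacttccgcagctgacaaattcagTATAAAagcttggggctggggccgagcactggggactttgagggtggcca

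The Fos window held 2 CRE half-sites, starting 129 and 66 bases before the start, and a TATA box starting 33 bases before it. Fosb had 1 half-site starting at 60 bases and an EGR site starting at 50 bases before its start. In Jun the match was to the CRE-like site, starting 45 bases before the start, and no half-site or TATA box was found. Junb held a half-site starting 106 bases before the start and a TATA box that began at the RefSeq start itself.

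Windows of 7 of the 9 measured genes were searched, and a half-site was found in 5 of these 7 (Fos, Fosb, Junb, Atf3 and Dusp1), against 20.8% of 32817 mouse promoter windows of the same length. The CRE-like site, which can overlap a half-site, was found in Jun and Dusp1 (8.84% of all windows), the EGR site in Fosb and Zfp36 (5.56%), the TATA box in Fos and Junb (13.6%), and the CArG box (CC and GG around 6 A or T bases) in Zfp36 alone (1.63%). No AP-1 site (TGANTCA) was found in any of the 7, against 7.81% of all windows. The GC box (GGGCGG), which was not capitalised, was found in 6 of the 7 and in 35.6% of all windows. The RefSeq start used here is the GENCODE gene start for Fos and Jun, and lies 6 bases from it for Fosb, 30 for Junb, 1025 for Zfp36, 34706 for Atf3 and 53656 for Dusp1. These matches describe letters within the windows and do not show that a factor binds there. Sites more than 250 bases before the start were not searched, nor were Egr1 and Ier2. A motif that was not found here, the CArG box included, may thus lie outside a window.

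**Figure D1:**
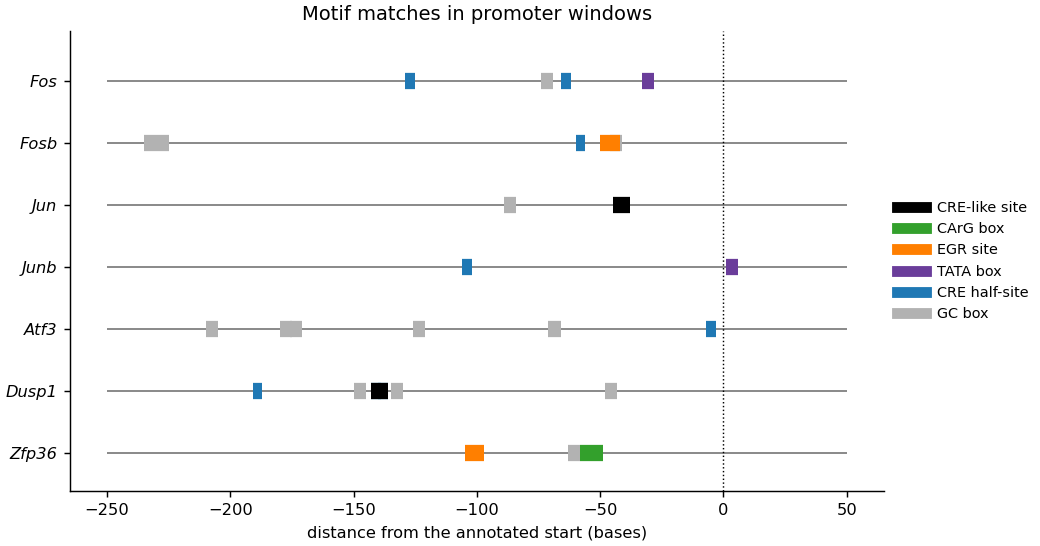
Motif matches in the promoter windows of 7 of the 9 measured genes. The x axis is the distance from the RefSeq start in bases, each line is 1 window and each block 1 match; CRE half-sites stand in 5 windows, and a CRE-like site in Jun and Dusp1.

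Values are the deposited log2 CPM, where CPM is a read count after scaling every library to one total, given below as CPM, with differences on the log2 scale. Depth was roughly estimated at 25700000 to 33000000 reads per library. The estimate assumes that all libraries share one distribution, because the normalization removed their own scaling. The knocked-out gene went against the labels: Id1 stood at 9.06 and 8.44 CPM in the KO-labelled stressed libraries and at 1.28 and 4.39 CPM in the WT-labelled stressed ones. In normal HSCs it stood at 13.2, 10.6 and 9.62 CPM in the KO-labelled libraries and at 1.35, 1.72 and 3.17 CPM in the WT-labelled ones. Every KO-labelled library thus had more Id1 than every WT-labelled one, the deposited table does not say which part of the gene was deleted, and every genotype direction below is one between labels. A principal component with 19.0% of the variance separated the conditions, while WT-labelled stressed library A (on the component with 13.1%) and KO-labelled normal library A (12.5%) stood apart from their groups. The genotype difference of the Fos change, given below, was 2.62 with KO-labelled normal A left out (limma adjusted p = 0.034), and leaving out WT-labelled stressed A gave 2.40 (limma adjusted p = 0.070). All 15 HSC marker genes were above 1 CPM in every library. In such bulk samples, fewer cells of a type and less RNA per cell cannot be told apart.

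Fos, the gene of the FOS subunit that pairs with JUN (chromosome 12, 85473890 to 85477273, plus strand, mm10), was the one gene of the 9 whose change with stress passed the test of a genotype difference. It was lower in KO-labelled than WT-labelled normal HSCs, rose with stress in KO-labelled HSCs and fell with stress in WT-labelled HSCs. Fos stood at 15.3 and 14.8 CPM in the KO-labelled stressed pair, A and B, and at 8.63 and 9.75 CPM in the WT-labelled stressed pair. In normal HSCs it stood at 9.62, 6.04 and 8.94 CPM in KO-labelled libraries A, B and C and at 26.6, 29.5 and 26.5 CPM in the WT-labelled ones. Neither pair of groups overlapped, the KO-labelled libraries being the higher ones under stress and the lower ones in normal HSCs.

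In normal HSCs the KO-labelled libraries differed from the WT-labelled ones by -1.77 in log2 Fos (SE 0.20, limma adjusted p = 0.0013, 3 against 3), a ratio of 0.292. Under stress the difference was 0.71 (SE 0.25, limma adjusted p = 0.43, 2 against 2), which did not pass the test. In KO-labelled HSCs Fos rose with stress by 0.90 (SE 0.22, limma adjusted p = 0.045), and in WT-labelled HSCs it fell to a ratio of 0.334, a difference of -1.58 (SE 0.22, limma adjusted p = 0.0032). The change with stress differed between genotypes by 2.49 (SE 0.32, 95% interval 1.79 to 3.18, limma adjusted p = 0.036), which is the interaction.

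The calls for Fos in normal HSCs and for its fall in WT-labelled HSCs held under all 19 alternatives in processing, with adjusted p between 0.00075 and 0.023 and between 0.0015 and 0.030. The rise in KO-labelled HSCs kept its direction but lost its call in 13 of 19, and without any 1 library other than KO-labelled normal A its adjusted p lay between 0.054 and 0.20. The interaction kept a value between 2.28 and 2.62 and lost its call in 10 of 18. Its adjusted p was 0.085 without KO-labelled stressed A, 0.17 without KO-labelled stressed B, 0.075 without KO-labelled normal C, 0.070 without WT-labelled stressed A, and 0.17, 0.11 and 0.17 without WT-labelled normal A, B and C.

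**Figure D2:**
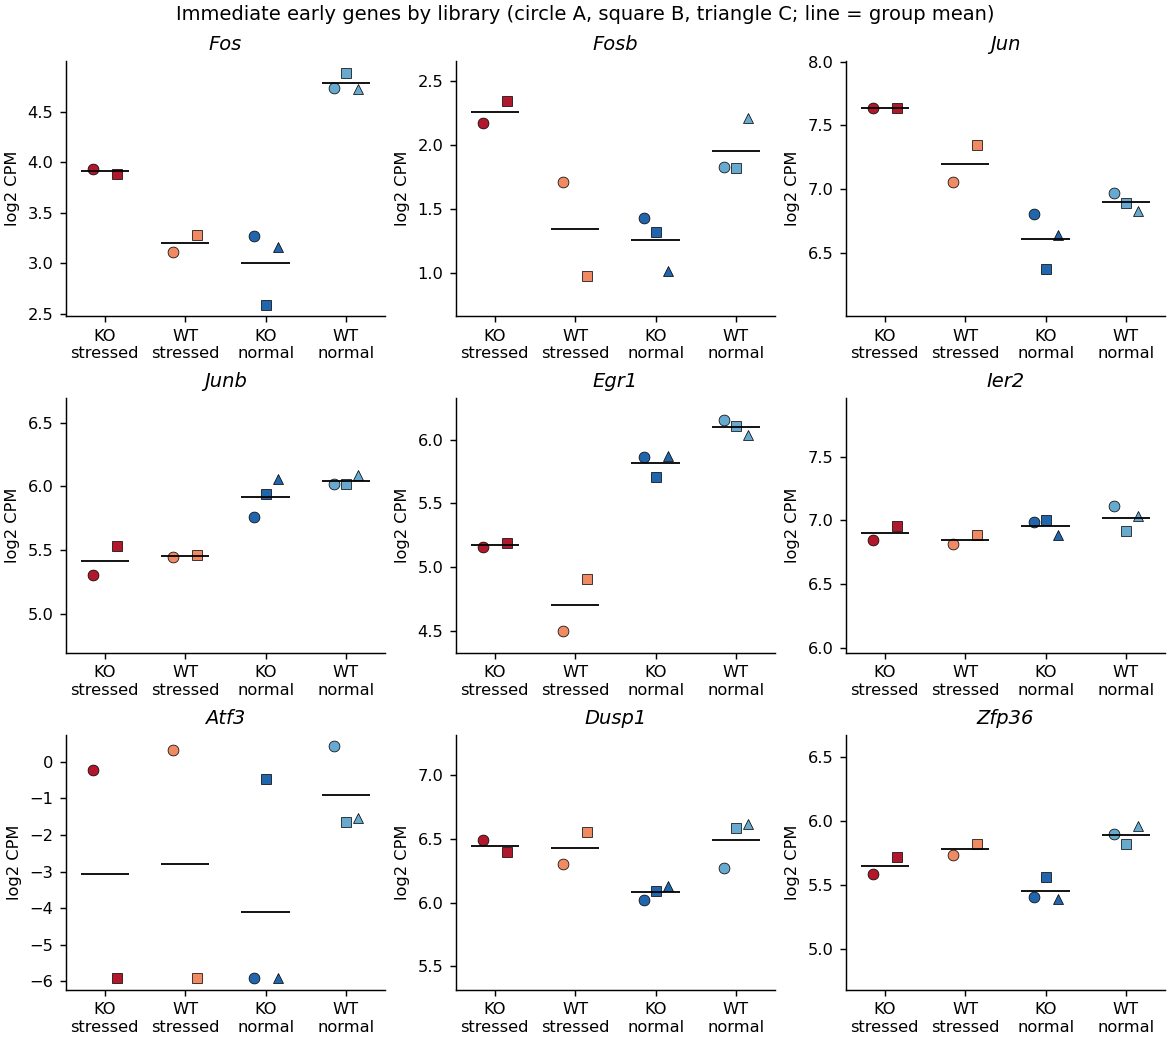
Level of each of the 9 measured genes by library. The y axes are log2 CPM, with a range of their own for each gene; circles, squares and triangles are libraries A, B and C, and lines are group means. Fos is high in WT normal libraries and low in KO normal ones, Jun is highest in KO stressed libraries, and Atf3 falls to the lowest value, 0 reads, in 4 libraries.

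Fosb, the other FOS subunit gene measured (chromosome 7, 19302696 to 19310051, minus strand), was scarce and had the same order of group means under stress and in normal HSCs as Fos. It stood at 4.52 and 5.08 CPM in KO-labelled stressed libraries and at 3.28 and 1.96 CPM in WT-labelled stressed ones. Its levels were 2.70, 2.49 and 2.02 CPM in KO-labelled normal libraries, against 3.55, 3.53 and 4.64 CPM in WT-labelled normal ones. Groups did not overlap in any of the 4 pairings, but no difference passed the test. The interaction was 1.62 (SE 0.52, 95% interval 0.48 to 2.75, limma adjusted p = 0.38), and the changes with stress were 1.01 in KO-labelled HSCs (adjusted p = 0.17) and -0.61 in WT-labelled HSCs (adjusted p = 0.44).

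Jun, which encodes the main partner of FOS (chromosome 4, 95049034 to 95052222, minus strand, a single exon), was highest in stressed HSCs and highest of all in KO-labelled ones. It stood at 199.0 and 198.7 CPM in KO-labelled stressed libraries and at 132.9 and 162.6 CPM in WT-labelled stressed ones. In normal HSCs it stood at 112.0, 82.8 and 99.7 CPM in KO-labelled libraries and at 125.1, 118.8 and 113.9 CPM in WT-labelled ones. The groups were separate in all 4 pairings, with WT-labelled stressed library A closest to the normal range.

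In KO-labelled HSCs Jun rose with stress by 1.03 (SE 0.13, limma adjusted p = 0.00091), a ratio of 2.04, and this call held under all 19 alternatives (adjusted p 0.00034 to 0.021). In WT-labelled HSCs its change was 0.30 (SE 0.13, limma adjusted p = 0.25). The difference between these changes, 0.73 (SE 0.18, 95% interval 0.34 to 1.12), did not pass (limma adjusted p = 0.23). Between genotypes Jun differed by 0.44 under stress and by -0.29 in normal HSCs, neither of which passed (adjusted p = 0.39 and 0.27). Jun shares 232 of its 3189 exonic bases with the antisense gene Junos. Whether strand was used in counting is not given in the sources used here, so reads of the pair cannot be told apart over the shared bases.

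Junb, whose product can replace JUN in AP-1 and often opposes it (chromosome 8, 84974484 to 84978718, minus strand), fell with stress in both genotypes. It stood at 39.5 and 46.2 CPM in KO-labelled stressed libraries, against 54.1, 61.4 and 66.4 CPM in KO-labelled normal ones. In WT-labelled libraries it stood at 43.5 and 44.0 CPM under stress, against 64.8, 64.8 and 67.9 CPM in normal HSCs. All 4 stressed libraries lay below all 6 normal ones, while the genotypes overlapped within each condition.

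With stress Junb fell by 0.50 on the log2 scale under the KO label (SE 0.12, limma adjusted p = 0.044) and fell by 0.59 under the WT label (SE 0.12, limma adjusted p = 0.025), and the difference between these falls was 0.09 (95% interval -0.29 to 0.47, limma adjusted p = 0.91). The call in KO-labelled HSCs was lost in 14 of 19 alternatives, its adjusted p being 0.057 to 0.27 without any 1 library other than KO-labelled normal A. In WT-labelled HSCs the call was lost in 7, with adjusted p of 0.12 and 0.10 without WT-labelled stressed A and B and of 0.074, 0.073 and 0.091 without WT-labelled normal A, B and C. Junb shares 173 exonic bases with Prdx2 on the other strand, a peroxiredoxin gene with more reads in KO-labelled than WT-labelled normal HSCs (0.33, SE 0.065, limma adjusted p = 0.028), and the part of Prdx2 reads in Junb was not tested.

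Because transcripts of different length collect reads in proportion, subunits were set against each other as CPM per kilobase of merged exons. Jun made up 71.9% and 69.6% of the summed CPM per kilobase of the 4 AP-1 genes in KO-labelled stressed libraries, and 64.4% and 68.4% in WT-labelled stressed ones. In normal HSCs its share was 55.6%, 46.7% and 48.6% in KO-labelled libraries and 49.5%, 47.4% and 46.3% in WT-labelled ones. Junb held 19.8% to 29.2% over the 4 stressed libraries, below its 35.5% to 48.0% over the 6 normal ones.

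Fos had a share of 7.48% and 7.02% in KO-labelled stressed libraries and of 5.67% and 5.56% in WT-labelled stressed ones. It had 6.48%, 4.62% and 5.91% in KO-labelled normal libraries and 14.2%, 16.0% and 14.6% in WT-labelled normal ones. WT-labelled normal HSCs thus stood apart from the other 3 groups, with 3.48, 2.97 and 3.17 Jun transcripts for each Fos transcript by this measure. The same ratio was 9.61 and 9.92 in KO-labelled stressed, 11.4 and 12.3 in WT-labelled stressed and 8.58, 10.1 and 8.23 in KO-labelled normal libraries. Fosb held under 1% in every library. These shares describe transcripts, without Jund, and were not tested. Merged exons pool all annotated transcripts of a gene, with 6243 bases for Fosb and 3470 in 1 merged exon for Zfp36. Levels per kilobase, here and below, are therefore too low wherever shorter transcripts are the ones present.

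**Figure D3:**
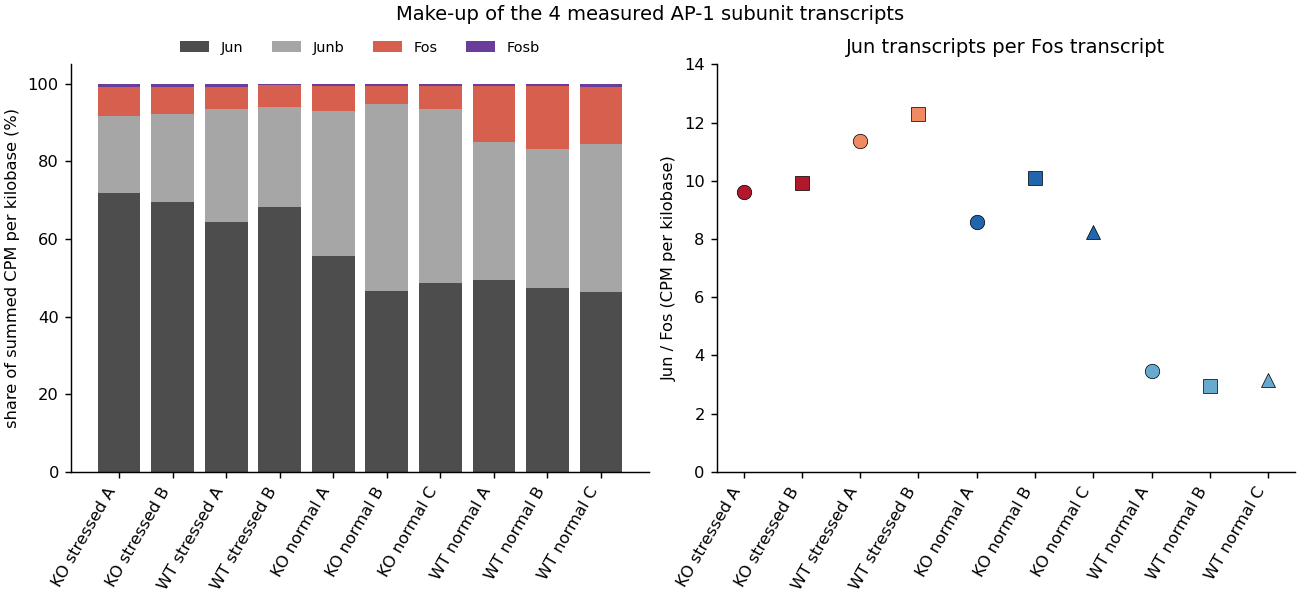
Left, share of each subunit in the summed CPM per kilobase of Fos, Fosb, Jun and Junb, as stacked bars by library (%). Right, Jun over Fos in CPM per kilobase, 1 point per library. Jun takes 64.4% to 71.9% in stressed libraries, and WT normal libraries hold the most Fos, with 2.97 to 3.48 Jun per Fos.

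Egr1, the zinc finger factor (chromosome 18, 34859823 to 34864984, plus strand), fell with stress in both genotypes. It stood at 35.7 and 36.6 CPM in KO-labelled stressed libraries and at 22.6 and 30.01 CPM in WT-labelled stressed ones. In normal HSCs it stood at 58.1, 52.3 and 58.5 CPM in KO-labelled libraries and at 71.3, 69.0 and 65.6 CPM in WT-labelled ones. The 4 groups formed separate bands, with both stressed groups below both normal ones.

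Egr1 changed by -0.64 with stress in the KO-labelled libraries (SE 0.14, limma adjusted p = 0.024) and by -1.40 in the WT-labelled ones (SE 0.14, limma adjusted p = 0.00034), a ratio of 0.38. Egr1's fall in WT-labelled HSCs held under all 19 alternatives (adjusted p 0.00012 to 0.011). In KO-labelled HSCs the call was lost in 7 of 19, with adjusted p of 0.13 and 0.12 without KO-labelled stressed A and B and of 0.056 and 0.071 without KO-labelled normal A and C. The genotype difference of the change, 0.76 (SE 0.19, 95% interval 0.33 to 1.19), did not pass (limma adjusted p = 0.26), nor did the genotype differences of 0.47 under stress (adjusted p = 0.39) and -0.29 in normal HSCs (adjusted p = 0.33).

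Ier2, a nuclear protein gene of the early response (chromosome 8, 84661331 to 84662852, minus strand), had the narrowest range of the 9. It stood at 115.0 and 123.7 CPM in KO-labelled stressed, 112.4 and 117.8 CPM in WT-labelled stressed, 126.5, 128.2 and 118.0 CPM in KO-labelled normal and 137.9, 120.6 and 131.2 CPM in WT-labelled normal libraries. Its range over all 10 libraries was 0.30 on the log2 scale, against 2.29 for Fos. The changes with stress were -0.06 in KO-labelled HSCs (95% interval -0.25 to 0.13) and -0.17 in WT-labelled HSCs (95% interval -0.36 to 0.02), and no comparison of Ier2 passed.

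Atf3, a stress-induced bZIP factor that can repress or activate transcription (chromosome 1, 191170296 to 191218039, minus strand), was barely detected. The ladder of low values gave 25 and 0 reads in KO-labelled stressed libraries, 35 and 0 in WT-labelled stressed, 0, 22 and 0 in KO-labelled normal and 40, 10 and 11 in WT-labelled normal ones. WT-labelled normal HSCs were the only group with reads in every library, and all pairs of groups overlapped. No fold change is given because groups with 0 reads make it depend on the lowest deposited value, and no comparison passed.

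Dusp1, the gene of a nuclear MAP kinase phosphatase (chromosome 17, 26505590 to 26562128, minus strand), was lowest in KO-labelled normal HSCs. It stood at 89.9 and 84.1 CPM in KO-labelled stressed libraries and at 79.0 and 93.9 CPM in WT-labelled stressed ones. In normal HSCs it stood at 64.8, 68.2 and 70.2 CPM in KO-labelled libraries, below 77.4, 95.8 and 98.4 CPM in WT-labelled ones. KO-labelled normal libraries did not overlap with those of any other group. The genotype difference in normal HSCs was -0.41 (SE 0.11, limma adjusted p = 0.11) and the change with stress in KO-labelled HSCs was 0.36 (SE 0.12, limma adjusted p = 0.14), and neither passed.

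Zfp36, which encodes tristetraprolin (chromosome 7, 28376784 to 28380253, minus strand), had a similar profile. It stood at 47.9 and 52.6 CPM in KO-labelled stressed libraries and at 53.3 and 56.6 CPM in WT-labelled stressed ones. In normal HSCs it stood at 42.2, 47.3 and 42.0 CPM in KO-labelled libraries and at 59.5, 56.4 and 62.5 CPM in WT-labelled ones. KO-labelled libraries lay below WT-labelled ones in both conditions without overlap. In normal HSCs the difference was -0.44 (SE 0.10, limma adjusted p = 0.064), which would pass at a threshold of 0.10 only, and the interactions of Dusp1 (0.43, SE 0.18) and Zfp36 (0.31, SE 0.16) did not pass (limma adjusted p = 0.51 and 0.59). Zfp36 shares 125 exonic bases with the antisense gene Gm44710.

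Set side by side, the genes gave counts that varied among the comparisons. With KO-labelled against WT-labelled stressed HSCs, 0 of 9 passed (limma, adjusted p under 0.05), where 0.145% of all 15143 genes passed. An unadjusted p under 0.05 was found for 4 of 9, against 8.88% of all genes. In 5 of 9 the groups did not overlap, and 39.1% of all genes were separate in this way between 2 and 2 libraries. With KO-labelled against WT-labelled normal HSCs, 1 of 9 passed (Fos, lower), against 1.56% of all genes, and 6 of 9 did not overlap, against 19.5%. Leaving out Atf3, which has no usable fold change, 8 of 8 differences were below 0 there, with a median of -0.35, where the median of all genes was -0.01.

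Between stressed and normal KO-labelled HSCs, 4 of 9 passed (Fos and Jun higher, Junb and Egr1 lower), against 4.5% of all genes, and 7 of 9 did not overlap, against 33.1%. Between stressed and normal WT-labelled HSCs, 3 of 9 passed (Fos, Junb and Egr1, all lower), against 3.3%, and 6 of 9 did not overlap, against 36.4%. In the interaction, 1 of 9 passed (Fos), against 0.0198% of all genes. Without Atf3, 8 of 8 interaction values were above 0, with a median of 0.58, against a median of -0.004 and 49.5% above 0 over all genes. The interaction contains the differences in normal HSCs with their sign turned, so the counts of 8 below 0 and of 8 above 0 share libraries. The 3 genes that passed it were Fos, mt-Co1 (-0.66, limma adjusted p = 0.00024), a mitochondrial subunit gene of cytochrome oxidase, and Hnrnpu (0.54, limma adjusted p = 0.016), a nuclear RNA-binding protein gene. For mt-Co1 all 3 KO-labelled normal libraries held the same value, 11.85 log2 CPM, and WT-labelled normal A and C shared another, 11.25. Equal values such as these come with the normalization of the deposited values. They can understate the spread, so the SE and p of mt-Co1 may be too small.

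**Figure D4:**
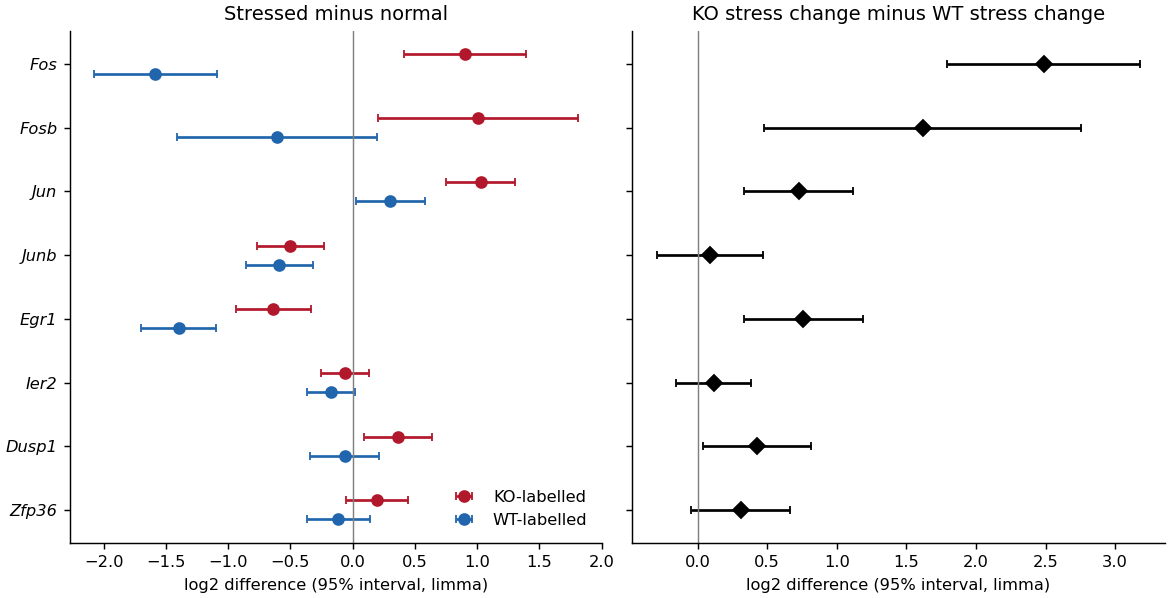
Left, change with stress of 8 genes in KO-labelled and WT-labelled HSCs. Right, the difference between these changes. Points are log2 differences and bars 95% intervals from limma, not adjusted for the number of genes; Atf3 is not drawn. The Fos points lie on opposite sides of 0, the Junb points side by side, and Egr1 fell further in WT-labelled HSCs, a difference that did not pass.

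Per kilobase, Ier2 had the highest level in each group, with means of 78.4 (SD 4.07, n = 2) in KO-labelled stressed, 75.6 (SD 2.51, n = 2) in WT-labelled stressed, 81.6 (SD 3.59, n = 3) in KO-labelled normal and 85.4 (SD 5.74, n = 3) in WT-labelled normal libraries. Jun was next in every group, at 62.4 CPM per kilobase in KO-labelled stressed, 46.3 in WT-labelled stressed, 30.8 in KO-labelled normal and 37.4 in WT-labelled normal libraries. In both stressed groups Dusp1, Junb, Zfp36, Egr1, Fos, Fosb and Atf3 followed in that order, and in both normal groups Junb stood above Dusp1. Neighbours whose libraries overlapped were Jun with Junb and Zfp36 with Egr1 in KO-labelled normal HSCs, Junb with Dusp1 in WT-labelled normal HSCs, and Fosb with Atf3 in every group but KO-labelled stressed. The 9 genes together summed to 548 and 562 CPM in KO-labelled stressed, 457 and 517 in WT-labelled stressed, 470, 449 and 466 in KO-labelled normal and 568, 559 and 571 in WT-labelled normal libraries.

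Across the 10 libraries, which share the 4 groups and so are not independent points, Egr1 varied most like Junb (Pearson r = 0.89) and Dusp1 most like Zfp36 (r = 0.76), while Jun ran against Junb (r = -0.78). Fos was closer to Zfp36 (r = 0.68), Dusp1 (r = 0.65) and Fosb (r = 0.64) than to Jun (r = 0.24). Among 10191 well measured genes outside the list, those most like Fos were Jam2 (r = 0.91), Rab43 (r = 0.87), Pank4 (r = 0.87), Hectd3 (r = 0.85) and Dennd1a (r = 0.85). Those most like the mean of the 9 genes were Sec31a (r = 0.97), Ccdc88b (r = 0.95), Myo1c (r = 0.94), Trim8 (r = 0.89) and Ikzf4 (r = 0.87), but this mean follows Atf3, whose range of 6.33 on the log2 scale comes from 0 reads. Without Atf3, a choice made after seeing the data, they were Utrn (r = 0.92), Nat10 (r = 0.90), Dennd1a (r = 0.90), Jam2 (r = 0.87) and Nr2c2 (r = 0.86).

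Of 40 other immediate early genes, 38 were in the table and 34 were tested. Called were 1 of 34 with stress in KO-labelled HSCs (4.5% of all genes), the same gene with stress in WT-labelled HSCs (3.3%) and 0 elsewhere. Plk2, a polo-like kinase gene, changed by -1.51 with stress in the KO-labelled libraries (SE 0.23, limma adjusted p = 0.0037) and by -2.05 in the WT-labelled ones (SE 0.23, limma adjusted p = 0.00073), and both calls held under all 19 alternatives. An unadjusted p under 0.05 was found for 7 of 34 between genotypes under stress (8.88% of all genes), for 8 in normal HSCs (13.9%) and for 3 in the interaction (9.15%, the background level). In normal HSCs 26 of 34 stood below 0, with a median of -0.13, and in the interaction 20 of 34 stood above 0, with a median of 0.08. Those nearest to passing between genotypes were Myc, the growth-promoting transcription factor gene, at -0.19 in normal HSCs (limma adjusted p = 0.080) and Socs3, a brake on cytokine signalling, at -1.27 under stress (limma adjusted p = 0.37). Klf2, a zinc finger factor gene picked out after its values were seen, lay near Fos on both axes, with changes of 0.76 in KO-labelled HSCs and -1.66 in WT-labelled HSCs that did not pass. Its interaction of 2.42 (SE 1.21) did not pass (limma adjusted p = 0.57).

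**Figure D5:**
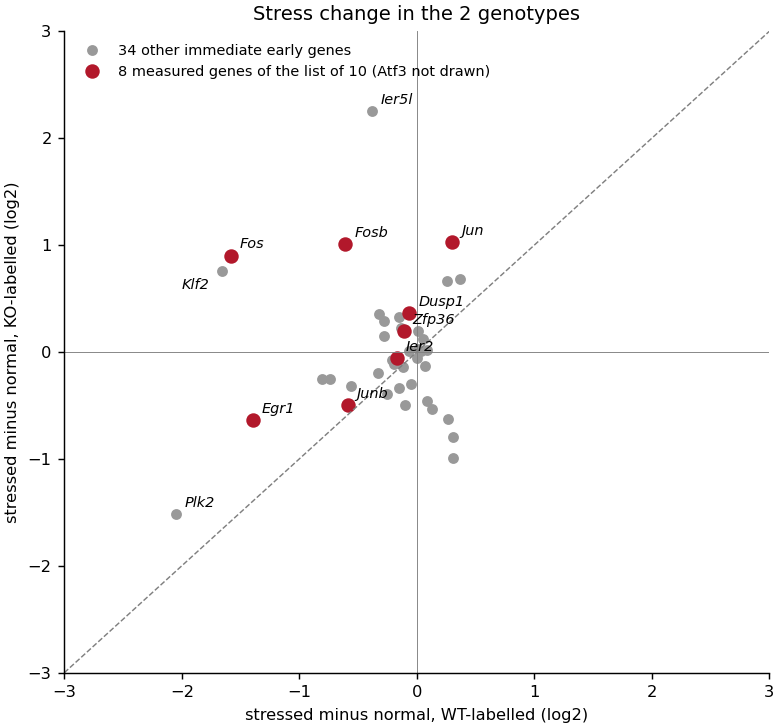
Change with stress in KO-labelled HSCs (y axis) against that in WT-labelled HSCs (x axis), log2. Red points are 8 of the 9 measured genes (Atf3 is not drawn), grey points 34 other immediate early genes, and the dashed line marks equal change. The 2 changes share no libraries; Fos and Fosb lie up and left of the line, Plk2 at the lower left near it.

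Calls among genes upstream of the 10 or working beside them were near the background shares given above. Of 32 kinases and factors that signal to immediate early genes, 1 passed in any comparison: Map2k1, the gene of the ERK kinase MEK1, changed by -0.46 with stress in the KO-labelled libraries (SE 0.093, limma adjusted p = 0.017), a call lost without KO-labelled stressed A (adjusted p = 0.084), KO-labelled stressed B (0.13) or KO-labelled normal B (0.050). In WT-labelled HSCs its change of -0.29 did not pass (limma adjusted p = 0.13). In the interaction 25 of these 32 stood above 0, with a median of 0.15 (49.5% above 0 over all genes), and limma called 0, 5 having an unadjusted p under 0.05 (9.15% of all genes). Of 21 other bZIP and ATF partners tested, and of 15 EGR1 corepressors and relatives of DUSP1 and tristetraprolin, limma called 0 in all 5 comparisons. Unadjusted p values under 0.05 numbered 2 to 6 per comparison among the partners and 1 to 2 among the relatives, against 8.88% to 17.9% of all genes. Those with the smallest p were Nfe2, an erythroid and megakaryocytic bZIP gene, at -0.16 with stress in KO-labelled HSCs (limma adjusted p = 0.14), and Dusp2 and Dusp3, phosphatase genes related to Dusp1, at -0.34 (limma adjusted p = 0.063) and 0.74 (limma adjusted p = 0.075) in the same comparison. The lists overlap, Atf2 and Dusp2 each being in 2 of them.

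Markers of HSCs, of other blood cells and of heat shock were summed per library, and several sums differed between the same groups. Summed megakaryocyte markers (9 genes, none at 0) stood at 1470 to 1481 CPM in KO-labelled stressed, 1373 to 1393 in WT-labelled stressed, 874 to 942 in KO-labelled normal and 955 to 992 in WT-labelled normal libraries. With stress, 6 of 9 were called higher and 1 lower in KO-labelled HSCs (4.5% of all genes called), and 4 of 9 higher in WT-labelled HSCs (3.3%). Pf4 and Itga2b kept both calls under all 19 alternatives, while Treml1 lost its call in 15, Gp1ba in 11, Thbs1 in 6 and Vwf in 2 in KO-labelled HSCs, and Gp1ba in 10 and Gp1bb in 7 in WT-labelled HSCs. Summed HSC markers (15 genes) stood at 4329 to 4427 CPM in KO-labelled stressed, 4665 to 4815 in WT-labelled stressed, 5013 to 5357 in KO-labelled normal and 5816 to 6127 in WT-labelled normal libraries, with 6 of 15 called lower under stress in each genotype (4.5% and 3.3% of all genes were called in KO-labelled and WT-labelled HSCs), among them Hlf, Mllt3 and Pdzk1ip1 in both under all 19 alternatives.

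B and plasma cell markers (12 measured) summed to 516 to 524 CPM in KO-labelled stressed, 225 to 252 in WT-labelled stressed, 260 to 288 in KO-labelled normal and 255 to 273 in WT-labelled normal libraries, with 3 of 9 tested called higher in KO-labelled stressed HSCs than in WT-labelled stressed ones (the antibody genes Igkc, Jchain and Ighg2b), against 0.145% of all genes. These calls were lost in 2 of 19 alternatives for Igkc, 3 for Jchain and 9 for Ighg2b. The same 3 genes of the 9 tested were called higher with stress in KO-labelled HSCs, against 4.5% of all genes. Ighg2b was at 0 reads in every library of the other 3 groups. It thus passed the filter through the KO-labelled stressed libraries alone, and its differences depend on the lowest deposited value. Its calls therefore carry no weight in these counts. Group means of Igkc and Jchain were also below a log2 CPM of 0 in the other 3 groups. Iglc2 and Ebf1 were among the markers at 0 in every WT-labelled stressed library. Granulocyte and monocyte markers (16 measured) summed to 401 to 406 CPM in KO-labelled stressed, 409 to 428 in WT-labelled stressed, 440 to 484 in KO-labelled normal and 346 to 386 in WT-labelled normal libraries, with Ltf at 0 in every KO-labelled library and Ctsg in every WT-labelled stressed one. Of the 14 tested, Mpo, a granule enzyme gene, was called higher in KO-labelled than WT-labelled normal HSCs (2.27, SE 0.37, limma adjusted p = 0.0091, lost in 1 of 19), the comparison in which Fos was lower. S100a8 and S100a9 were called lower with stress in KO-labelled HSCs (limma adjusted p = 0.031, lost in 7 of 19, and 0.0071, lost in 1 of 18). These were 1 of 14 between genotypes in normal HSCs (1.56% of all genes) and 2 of 14 with stress in KO-labelled HSCs (4.5%).

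Erythroid markers (12 measured) summed to 1482 to 1519 CPM in KO-labelled stressed, 1537 to 1545 in WT-labelled stressed, 1629 to 1728 in KO-labelled normal and 1707 to 1743 in WT-labelled normal libraries, with Slc4a1 at 0 in every WT-labelled stressed library. Car1, a carbonic anhydrase gene, was called lower with stress in both genotypes, at -0.79 in KO-labelled HSCs (limma adjusted p = 0.0012) and -1.23 in WT-labelled HSCs (limma adjusted p = 8e-05), under all 19 alternatives. The globin genes Hba-a1 and Hbb-bt were called lower with stress in WT-labelled HSCs (limma adjusted p = 0.017 and 0.016), each lost in 5 alternatives. With stress, 1 of 11 tested was called in KO-labelled HSCs and 3 in WT-labelled HSCs, against 4.5% and 3.3% of all genes.

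T and NK cell markers (4 of 10 in the table) summed to 98.1 to 99.3 CPM in KO-labelled stressed, 111 to 123 in WT-labelled stressed, 63.8 to 69.3 in KO-labelled normal and 61.6 to 67.3 in WT-labelled normal libraries, with Trbc2 at 0 in every stressed library and Cd4 in every KO-labelled stressed one. Nkg7, a cytotoxic granule gene, was called higher with stress at 0.64 in KO-labelled HSCs (limma adjusted p = 0.0039) and 1.03 in WT-labelled HSCs (limma adjusted p = 0.00028). This was 1 of 3 tested in each genotype, against 4.5% and 3.3% of all genes. The other 2 tested went the other way, below 0 with stress in both genotypes. The median over the 3 was -0.61 in KO-labelled and -1.64 in WT-labelled HSCs. Endothelial and stromal markers (8 measured) summed to 112 to 117 CPM in KO-labelled stressed, 140 to 157 in WT-labelled stressed, 134 to 143 in KO-labelled normal and 130 to 140 in WT-labelled normal libraries, with Cdh5 at 0 in every stressed library and Cxcl12 and Kitl in every KO-labelled normal one. Among 13 heat shock genes tested, Hspa1a and Hspa1b were called higher in KO-labelled stressed HSCs than in WT-labelled ones (3.19, limma adjusted p = 0.0037, and 1.84, limma adjusted p = 0.049, lost in 1 and 13 of 19 alternatives). With stress both were called lower in WT-labelled HSCs (-2.21, limma adjusted p = 0.0037, and -1.23, limma adjusted p = 0.033, lost in 0 and 10 of 19), and Hsph1 and Dnaja1 in KO-labelled HSCs (-0.76, limma adjusted p = 0.0071, and -0.42, limma adjusted p = 0.0072, lost in 2 and 4). In normal HSCs Hspe1 and Dnajb1 were called higher in KO-labelled than WT-labelled libraries (0.67, limma adjusted p = 0.005, and 0.44, limma adjusted p = 0.037, lost in 1 and 11). Each of these 4 comparisons thus called 2 of 13. Of all genes, 0.145%, 3.3%, 4.5% and 1.56% were called in them, in the order given. The list summed to 6579 to 6841 CPM in KO-labelled stressed, 6662 to 6742 in WT-labelled stressed, 6970 to 7272 in KO-labelled normal and 6524 to 6625 in WT-labelled normal libraries. The part of these cell types, of heat shock and of handling in the levels of the immediate early genes was not tested.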

How the data were processed

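For these RNA-seq libraries of sorted HSCs the submitters' processing notes name the aligner Bowtie2, the read counter featureCounts and the build mm10; the versions and settings are not given in the sources used here. The authors deposited log2 CPM of 20270 genes after normalization; nearly equal distributions in all 10 libraries, from a lowest value of -5.90 (0 reads), show that they had been quantile normalized. This ties genes of equal rank to one value and can understate the spread of abundant genes. Depth was estimated from the steps between tied low values, which gives a rough figure only, because the normalization gave all libraries nearly the same values.

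Genes with a log2 CPM above 0 in at least 2 libraries were kept (15143). Means of the 4 groups were fitted with limma 3.58.1 in R 4.3.3 to all 10 libraries (6 residual degrees of freedom), with variances moderated along the mean and no replicate block. P-values were adjusted over all genes tested by the Benjamini-Hochberg method, and an adjusted p under 0.05 is called. The fit was tested on simulated data. Identifiers were matched to GENCODE annotation of mm10 (20199 matched), which gave coordinates, 1-based, and merged exon lengths. Motifs were searched on both strands of RefSeq promoter windows with Python 3.11.15, and plots drawn with matplotlib 3.10.9.

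Groups follow the genotype and treatment labels. Genes named outside the 10 are list members that were called, or nearest to it by p, and the 5 genes most correlated with Fos or with the mean profile; others are identified where they appear. The 10 genes and all lists were chosen with earlier results of these data known, so none is independent evidence of a direction. Alternatives covered the variance trend, filters, a pseudocount of 1 CPM, scaling, a replicate block, the libraries in the fit, the threshold, exon length and leaving out each library.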

Additional observations from a re-analysis of the deposited data

Results flagged for a closer look

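Fos stood out because its change with stress differed between genotypes by a test of the difference itself: the change in KO-labelled HSCs exceeded that in WT-labelled HSCs by 2.49 on the log2 scale (limma adjusted p = 0.036). The call was lost in 10 of 18 alternatives, with adjusted p up to 0.18; leaving out KO-labelled stressed A or B, KO-labelled normal C, WT-labelled stressed A, or WT-labelled normal A, B or C each lost it (adjusted p 0.070 to 0.17). Levels were higher under stress in KO-labelled HSCs in both stressed libraries and lower under stress in WT-labelled HSCs in both. Groups of 2 or 3 libraries are too small to test whether a single library lies far from the others. WT-labelled stressed A and KO-labelled normal A stood apart on principal components, and the Fos difference without each is given above.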

How the results depend on the processing

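No called value changed direction. Of the 9 measured genes, 2 were called between genotypes in normal HSCs at an adjusted p under 0.10. In KO-labelled HSCs the 4 called with stress became 1 with no trend in the variance, 2 with no filter, 1 with only the groups compared and 1 to 3 without any 1 library. The 1 called in the interaction became 0 with no trend, 0 with the trend over exon length removed, and 0 to 1 without any 1 library. In WT-labelled HSCs 2 to 3 were called without any 1 library, and 1 in normal HSCs between genotypes.

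Over all genes, KO-labelled against WT-labelled stressed HSCs gave 22 calls, 0 with only the groups compared, 37 at 0.10 and 12 to 51 without any 1 library. In normal HSCs the 236 calls became 45 with no trend, 133 with only the groups compared, 400 at 0.10 and 129 to 238 without any 1 library. With stress, the 682 in KO-labelled HSCs became 346, 249, 1067 and 278 to 681 under the same 4 settings, and the 500 in WT-labelled HSCs became 256, 330, 872 and 251 to 612. The interaction's 3 became 8 with no trend, 12 with no filter, 7 with a filter at log2 CPM 2, 15 with a pseudocount of 1 CPM, 26 at 0.10, 1 with the exon length trend removed and 1 to 26 without any 1 library.

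Libraries sharing a letter did not deviate together (correlations of their deviations from group means between -0.02 and 0.05), so letters were not taken as pairs. With a replicate block on the letters, the 9 genes gave 1 call with stress in KO-labelled HSCs and 0 in the interaction (Fos 2.49, adjusted p = 0.18). All genes then gave 11 calls between genotypes under stress, 447 with stress in KO-labelled HSCs and 289 in WT-labelled HSCs. The causes of these shifts were not tested. A fit of only the groups compared gave no separate interaction, which uses all 10 libraries, and the filter at log2 CPM 2 leaves out Atf3. Groups of 2 stressed libraries limit every result, a lone library in a group being assumed to vary like the others. At such low levels Atf3 cannot be compared.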
